A study of Mus musculus with 6 samples.

Results

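The inflammatory chemokine genes described here are Ccl2, Ccl3, Ccl4, Ccl5, Ccl7, Ccl12, Cxcl1, Cxcl2, Cxcl3 and Cxcl10. These 10 genes were taken by symbol from the 55401 genes of the deposited table, and each symbol matched 1 Ensembl identifier. RNA was sequenced from cultured macrophages that had been grown from the bone marrow of C57BL/6 mice. For 3 libraries the macrophages had received an siRNA serving as negative control (siNC), and for the other 3 one that targets Piezo1, a cation channel opened by membrane tension (siPiezo1). Every culture was stretched mechanically for 4 h, so the comparison is of Piezo1 knockdown under stretch; cells without stretch were not analysed here. The study asked how Piezo1 acts on macrophage growth under mechanical load.

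Chemokines are small secreted proteins that attract leukocytes through G protein-coupled receptors. Macrophages transcribe these genes at low levels when resting and raise them quickly after danger signals, cytokines or other stress, largely through the transcription factor NF-kB, and their mRNAs are short-lived. Ccl2, Ccl7 and Ccl12 attract monocytes through the receptor Ccr2, and Ccl7 also binds Ccr1. Ccl3, Ccl4 and Ccl5 attract monocytes and T cells, and Ccl3 and Ccl5 bind Ccr1. Cxcl1, Cxcl2 and Cxcl3 attract neutrophils through Cxcr2, and Cxcl10, an interferon-induced chemokine, attracts activated T cells through Cxcr3.

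Levels are given as CPM (estimated counts scaled to the library total), always in the order of the replicate numbers 1, 2 and 3. Piezo1 itself measured 180, 285 and 189 CPM in the siNC libraries and 111, 109 and 113 CPM in the siPiezo1 libraries, with no overlap between the groups. Library totals were 61086684 to 75052745 estimated counts. Macrophage markers were abundant: the summed CPM of 10 such genes, most of it Lyz2, was 28260 in siNC 2 and 34650 to 37590 in the other 5 libraries. Library siNC 2 was unlike the rest. Across genes, Pearson's r of log2 CPM was 0.938 and 0.944 between siNC 2 and the 2 other siNC libraries, against 0.963 to 0.969 for the other pairs within a group. Genes more than 2-fold above each of the other 5 libraries in siNC 2 made up 3.65% of the 15959 genes tested. Nothing in the labels marks siNC 2 as different, so it was kept in the main comparison. Each result is also given without it. Leaving it out rests on its expression values, so p-values without siNC 2 depend on that choice and are a description. Whether the libraries of a group came from separate cultures or animals is not stated in the labels. The p-values therefore speak to differences among these 6 libraries, whose spread could be technical. In bulk RNA, fewer cells of a type and less RNA per cell cannot be told apart.

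Outside siNC 2 the 10 genes covered a wide range of levels. To compare genes, levels were divided by the length of all annotated exons of a gene together, whether or not used here. The order of genes is therefore approximate. Ccl3 was the highest in all 5 libraries, at 88.8 to 124 CPM per kilobase. Ccl5 followed at 36.1 to 48.8, Ccl4 at 26.4 to 38.9, Cxcl2 at 20.1 to 36.6 and Ccl2 at 14.8 to 27.1 CPM per kilobase. The ranges of Ccl5 and Ccl4 overlapped, as did those of Ccl4 and Cxcl2 and those of Cxcl2 and Ccl2. Cxcl3 (3.10 to 8.00), Ccl7 (5.06 to 6.74) and Cxcl10 (4.29 to 6.05 CPM per kilobase) overlapped as well and could not be ordered. Cxcl1 stood at 1.29 to 2.82 and Ccl12 at 0 to 2.12 CPM per kilobase. The summed level of all 10 genes was 223 CPM in siNC 1 and in siNC 3, 308, 279 and 289 CPM in siPiezo1 1, 2 and 3, and 2042 CPM in siNC 2. Ccl3 held the largest part of the sum in those 5 libraries, at 30.5% to 33.3%. In siNC 2 the largest part was Ccl2, at 29.3%.

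**Figure D1:**
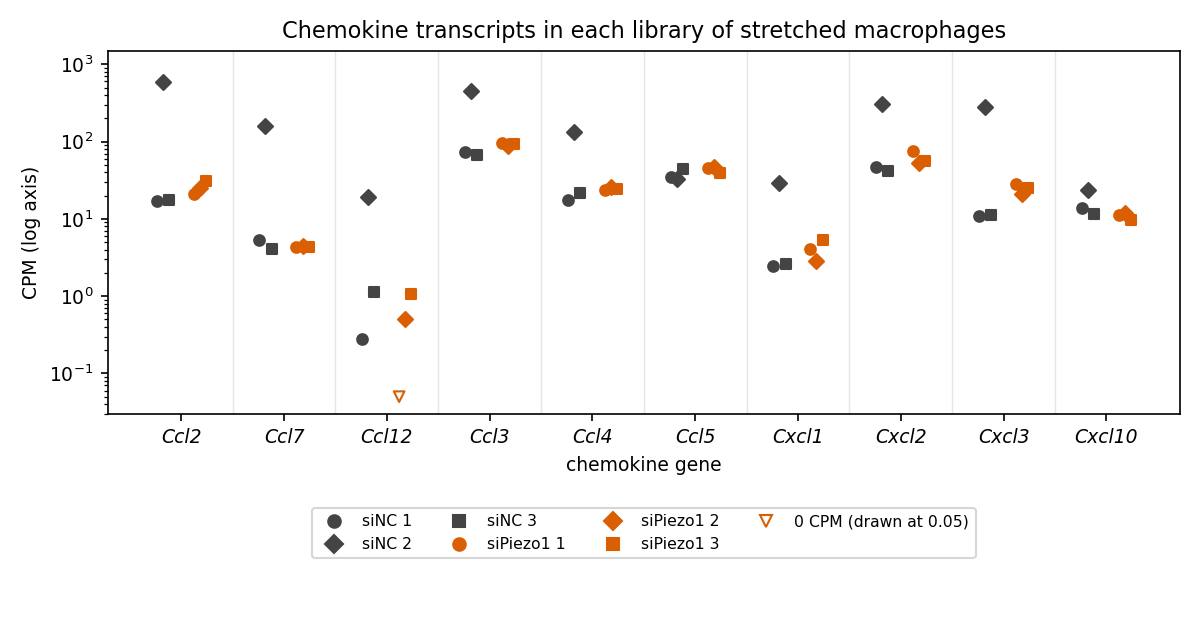
CPM of each chemokine gene on a log axis, 1 point per library, with siNC in grey and siPiezo1 in orange and the marker shape giving the replicate number. In 9 of the 10 genes the grey diamond, siNC 2, is the highest point, and Ccl5 is the exception; Ccl12 was 0 in siPiezo1 1 and is drawn at 0.05.

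The monocyte attractants Ccl2 and Ccl7 had the largest ratios of siNC 2 to the other siNC libraries. Ccl2 measured 16.9, 598 and 17.5 CPM in the siNC libraries and 20.8, 25.1 and 30.8 CPM in the siPiezo1 libraries. The siNC 2 level was 34.8 times the mean of siNC 1 and 3, while each siPiezo1 library lay above both of those. With all 6 libraries the log2 fold change of siPiezo1 against siNC was -3.04 ± 1.40 (SE), and without siNC 2 it was 0.57 ± 0.16 (SE). Ccl7, whose gene lies next to Ccl2 on mouse chromosome 11, measured 5.40, 160.0 and 4.05 CPM in the siNC libraries and 4.35, 4.39 and 4.29 CPM in the siPiezo1 libraries. Its siNC 2 level was 33.9 times the mean of siNC 1 and 3, close to the ratio of Ccl2. Unlike Ccl2, the siPiezo1 libraries of Ccl7 lay between siNC 1 and siNC 3. The log2 fold change was -3.70 ± 1.44 with all libraries and -0.12 ± 0.22 without siNC 2 (SE). Ccl12, of the same region of the chromosome, measured 0.280, 19.3 and 1.14 CPM in the siNC libraries and 0, 0.505 and 1.08 CPM in the siPiezo1 libraries. The siNC 2 level was 27.3 times the mean of siNC 1 and 3, which held 17 and 76 estimated counts, so this ratio is imprecise. Its value of 0 in siPiezo1 1 allows up to 0.162 CPM (3 fragments, counting error only). Its log2 fold change of -3.72 ± 1.83 became -0.43 ± 1.57 without siNC 2 (SE), a value too uncertain to give a direction.

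Ccl3 and Ccl4, which lie side by side on chromosome 11, had smaller ratios in siNC 2. Ccl3 measured 74.2, 456 and 68.0 CPM in the siNC libraries and 94.8, 88.2 and 93.8 CPM in the siPiezo1 libraries. Ccl4 measured 17.4, 135 and 21.4 CPM in the siNC libraries and 23.5, 25.7 and 24.4 CPM in the siPiezo1 libraries. The siNC 2 level was 6.41 times the mean of siNC 1 and 3 for Ccl3 and 6.93 times for Ccl4, and for both genes the siPiezo1 libraries lay in a narrow band above siNC 1 and 3. The log2 fold change of Ccl3 was -1.11 ± 0.73 with all libraries and 0.37 ± 0.07 without siNC 2 (SE). That of Ccl4 was -1.24 ± 0.77 with all libraries and 0.33 ± 0.12 without siNC 2 (SE). Ccl5 was the member not highest in siNC 2. It measured 34.6, 32.8 and 44.1 CPM in the siNC libraries and 45.5, 46.8 and 38.7 CPM in the siPiezo1 libraries, and siNC 2 was the lowest of the 6 libraries. In order of level per kilobase, Ccl5 ranked 2 of 10 in the median of the other 5 libraries and 8 of 10 in siNC 2. Its log2 fold change was 0.23 ± 0.14 with all libraries and 0.15 ± 0.13 without siNC 2 (SE).

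The neutrophil attractants Cxcl1, Cxcl2 and Cxcl3 lie close together on chromosome 5. Shown are the promoter windows of these genes and of Cxcl10, which are the member windows with a match to the NF-kB consensus. RefSeq promoter entries (build GRCm38.p6) matched 6 of the 10 members, Cxcl1, Cxcl2, Cxcl3, Cxcl10, Ccl3 and Ccl12. The 250 bases before the transcription start are given 5′ to 3′ on the strand of the gene. Capitals mark matches to the NF-kB consensus motif, to GAAA repeated after any 2 bases (an interferon response element) and to TGANTCA (an AP-1 element), all on either strand, and to the TATA-like ATAAAAG on the strand of the gene. Adjacent NF-kB matches overlap by all but 1 base and run together.
Cxcl1 (chr5:90890995-90891244, plus strand): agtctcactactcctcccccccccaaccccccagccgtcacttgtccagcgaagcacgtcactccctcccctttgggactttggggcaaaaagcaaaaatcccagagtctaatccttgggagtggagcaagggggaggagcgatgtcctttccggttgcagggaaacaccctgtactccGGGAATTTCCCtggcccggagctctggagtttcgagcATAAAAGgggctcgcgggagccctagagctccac
Cxcl2 (chr5:90903649-90903898, plus strand): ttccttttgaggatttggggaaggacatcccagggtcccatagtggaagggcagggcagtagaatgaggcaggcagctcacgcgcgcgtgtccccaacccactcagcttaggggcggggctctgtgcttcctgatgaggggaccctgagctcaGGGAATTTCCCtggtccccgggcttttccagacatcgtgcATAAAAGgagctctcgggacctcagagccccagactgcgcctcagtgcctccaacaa
Cxcl3 (chr5:90785851-90786100, plus strand): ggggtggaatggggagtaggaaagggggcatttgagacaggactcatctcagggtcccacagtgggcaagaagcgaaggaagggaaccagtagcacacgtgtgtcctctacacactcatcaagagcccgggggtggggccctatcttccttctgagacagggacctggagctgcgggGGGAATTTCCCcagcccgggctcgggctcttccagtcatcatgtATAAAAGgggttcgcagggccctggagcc
Cxcl10 (chr5:92348890-92349139, minus strand): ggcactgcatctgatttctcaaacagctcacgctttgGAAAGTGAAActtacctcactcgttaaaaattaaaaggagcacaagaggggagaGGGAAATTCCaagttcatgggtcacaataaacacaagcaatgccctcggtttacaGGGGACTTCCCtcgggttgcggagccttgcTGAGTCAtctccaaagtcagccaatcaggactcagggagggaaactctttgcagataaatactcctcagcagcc
Cxcl1, Cxcl2 and Cxcl3 held the same run, GGGAATTTCC, whose first base lay 71, 97 and 73 bases before the start. These letters were searched because the windows shared them, and 0.0852% of all 32851 RefSeq windows of this length held them on either strand. The overlapping GGAATTTCCC, shared as well, was in 0.0974% of all windows and also in that of Cxcl10. The NF-kB consensus was in 7.25% of all windows and in 4 of the 6 member windows, with 2 separate stretches in Cxcl10. The windows of Ccl3 and Ccl12, not shown, held no match to it. The repeated GAAA (2.98% of all windows) and TGANTCA (6.75%) each had a match in Cxcl10 and in none of the other member windows. ATAAAAG (3.01% of all windows) was in Cxcl1, Cxcl2, Cxcl3 and Ccl12. TTGCNNAA (9.56% of all windows), a C/EBP-like motif searched on both strands, was in none of the 6. A match is a description of the letters and not a measured site.

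Cxcl3 differed most between siPiezo1 and the siNC libraries other than siNC 2. It measured 10.8, 282 and 11.4 CPM in the siNC libraries and 28.0, 20.8 and 25.3 CPM in the siPiezo1 libraries. The siNC 2 level was 25.3 times the mean of siNC 1 and 3, and each siPiezo1 library was well above both siNC 1 and 3. Cxcl2 measured 47.4, 308 and 41.6 CPM in the siNC libraries and 75.6, 53.1 and 55.7 CPM in the siPiezo1 libraries. Cxcl1, a scarce transcript here, measured 2.42, 28.9 and 2.62 CPM in the siNC libraries and 4.12, 2.81 and 5.29 CPM in the siPiezo1 libraries. The siNC 2 level was 6.91 times the mean of siNC 1 and 3 for Cxcl2 and 11.5 times for Cxcl1. Both genes were above siNC 1 and 3 in every siPiezo1 library. The log2 fold changes with all libraries were -2.04 ± 1.25 for Cxcl3, -1.10 ± 0.77 for Cxcl2 and -1.47 ± 0.97 for Cxcl1 (SE). Without siNC 2 they were 1.15 ± 0.15 for Cxcl3, 0.47 ± 0.17 for Cxcl2 and 0.69 ± 0.32 for Cxcl1 (SE). Transcripts of Cxcl2 and Cxcl3 were 90.7% identical over 550 aligned bases, so the split of counts between this pair is uncertain where reads fall in shared sequence.

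Cxcl10, the interferon-induced member, measured 13.6, 23.4 and 11.5 CPM in the siNC libraries and 11.2, 11.9 and 9.67 CPM in the siPiezo1 libraries. The siNC 2 level was 1.86 times the mean of siNC 1 and 3, the smallest ratio among the 9 genes highest in that library, and the siPiezo1 libraries overlapped siNC 1 and 3. The log2 fold change was -0.57 ± 0.28 with all libraries and -0.21 ± 0.16 without siNC 2 (SE). Exons of Art3 cover 5.9% of the exon bases of Cxcl10 on the opposite strand, and Art3 was listed at 0 in all 6 libraries.

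With all 6 libraries, 0 of the 10 chemokine genes passed an adjusted p of 0.05, where 0.00627% of all tested genes did (1 of 15959, edgeR quasi-likelihood F-test, Benjamini-Hochberg adjusted over all tested genes). Each member had the same adjusted p of 0.978 (edgeR quasi-likelihood F-test, Benjamini-Hochberg). At an unadjusted p under 0.05 there was 1 of 10, Ccl7, beside 4.93% of all genes. DESeq2, limma-voom and limma-voom with library weights also called 0 members, beside 0.551%, 0.00627% and 0.107% of all genes, and DESeq2 gave no p for Ccl2, Ccl7, Cxcl1 and Cxcl3. The log2 fold change was below 0 in 9 of 10 members, with a median of -1.36, beside 52% and a median of -0.01 over all genes. The groups overlapped for all 10, while 11.9% of all genes did not overlap.

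**Figure D2:**
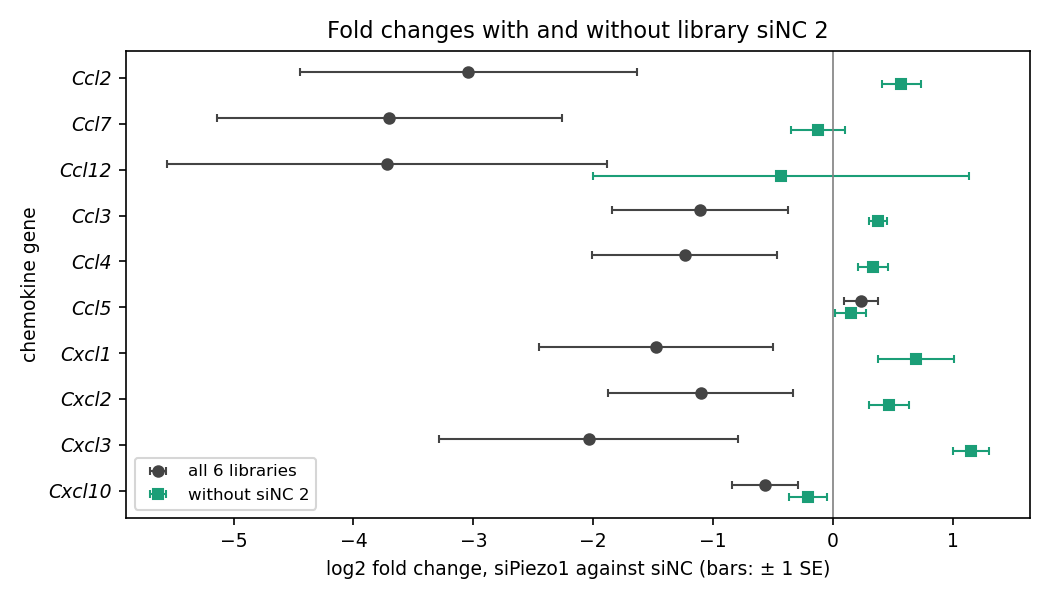
Log2 fold change of siPiezo1 against siNC for each gene, with bars of 1 SE either side, from all 6 libraries (grey circles) and without siNC 2 (green squares). The grey points of 9 genes lie below 0 with wide bars, and the green points of Ccl2, Ccl3, Ccl4, Cxcl1, Cxcl2 and Cxcl3 lie above 0 with narrower bars.

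Without siNC 2 the direction turned for 6 of the 10 genes, Ccl2, Ccl3, Ccl4, Cxcl1, Cxcl2 and Cxcl3. In those 6 each siPiezo1 library lay above siNC 1 and siNC 3, a pattern found in 16.9% of all tested genes. The log2 fold change was above 0 in 7 of 10 members, with a median of 0.35, beside 50.8% and a median of 0.01 over all genes. The p-values that follow are conditional on leaving out siNC 2, which was singled out by its expression values. Cxcl3 alone passed the threshold, and it was higher in siPiezo1 (adjusted p = 0.0159, edgeR quasi-likelihood F-test, Benjamini-Hochberg). Of all genes, 1.12% were called, 0.664% higher and 0.451% lower. The next smallest adjusted p belonged to Ccl3 (0.0604), followed by Ccl2 (0.151), Ccl4 (0.251) and Cxcl2 (0.271, edgeR quasi-likelihood F-test, Benjamini-Hochberg). At an unadjusted p under 0.05 there were 5 of 10 members, all higher, beside 14.4% of all genes, of which those higher were 7.69% of all genes. DESeq2 on the same 5 libraries called 3 members higher, Cxcl3, Ccl3 and Ccl2, where it called 3.8% of all genes higher, and limma-voom called Cxcl3, where it called 0.645% higher. The Cxcl3 call ended when siNC 1 or siNC 3 was left out as well (adjusted p = 0.107 and 0.106, edgeR quasi-likelihood F-test, Benjamini-Hochberg), each leaving 1 siNC library assumed to vary like the siPiezo1 ones. In 4 members, Ccl5, Ccl7, Ccl12 and Cxcl10, the siPiezo1 libraries overlapped siNC 1 and 3.

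**Figure D3:**
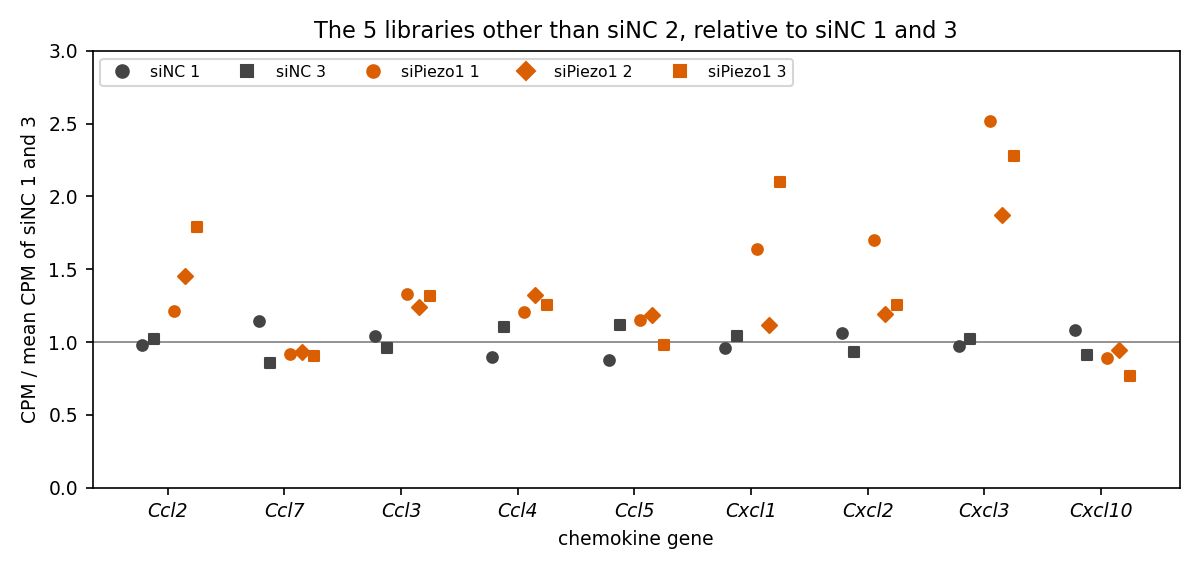
CPM of 9 chemokine genes in the 5 libraries other than siNC 2, divided by the mean of siNC 1 and 3 (line at 1); Ccl12 is left out because its levels were too low for a ratio. All 3 orange points of Ccl2, Ccl3, Ccl4, Cxcl1, Cxcl2 and Cxcl3 lie above both grey points, with Cxcl3 highest on average at 2.22.

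As levels, siNC 2 was the highest library for 9 of the 10 members, beside 28.8% of all genes, and was more than 2-fold above each other library for 8, beside 3.65%. The median log2 ratio of siNC 2 to siNC 1 and 3 was 3.03 over the members. Other inflammatory transcripts showed it too. Of 14 tested cytokine and enzyme genes, 13 were more than 2-fold above each other library in siNC 2. They included Il1b, which encodes interleukin-1 beta (16.8, 292 and 18.2 CPM in siNC; 26.02, 25.3 and 30.3 in siPiezo1), and Ptgs2, the inducible cyclooxygenase (19.5, 335 and 19.99 CPM in siNC; 59.1, 30.4 and 32.7 in siPiezo1). Csf3, the granulocyte growth factor, stood at 0.461, 64.8 and 0.748 CPM in siNC. For Il1b and Ptgs2 each siPiezo1 library lay above siNC 1 and 3, a pattern found in 5 of the 14, beside 16.9% of all tested genes. Neither list member passed the threshold without siNC 2 (adjusted p = 0.0574 for Il1b and 0.308 for Ptgs2, edgeR quasi-likelihood F-test, Benjamini-Hochberg).

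At the transcript level, the NF-kB and mRNA decay lists differed less in siNC 2 than the chemokine genes did. NF-kB activity was not measured. None of 16 tested genes of NF-kB subunits and upstream signalling was more than 2-fold above the other libraries in siNC 2, and their median log2 ratio was -0.19. The subunit gene Nfkb1 measured 199.6, 231 and 191 CPM in the siNC libraries and 181, 192 and 175 CPM in the siPiezo1 libraries. Of 11 NF-kB feedback genes, 1 was more than 2-fold above, Ier3, an early response gene, at 44.8, 203 and 44.9 CPM in the siNC libraries and 71.4, 56.1 and 70.9 CPM in the siPiezo1 libraries. Nfkbia, which encodes the NF-kB inhibitor IkB-alpha, measured 159.7, 216 and 167 CPM in the siNC libraries and 165, 142 and 158 CPM in the siPiezo1 libraries. Among 12 genes of mRNA decay, 0 were more than 2-fold above, and Zc3h12a, a ribonuclease that degrades cytokine mRNA, measured 44.9, 103 and 48.0 CPM in the siNC libraries and 54.6, 41.0 and 55.2 CPM in the siPiezo1 libraries. Interferon response genes went the other way in siNC 2, with a median log2 ratio of -0.77, and 4 of 17 were more than 2-fold below each other library, beside 2.74% of all genes. Ifit2, an interferon-induced antiviral gene, measured 369, 102 and 370 CPM in the siNC libraries and 311, 365 and 277 CPM in the siPiezo1 libraries.

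**Figure D4:**
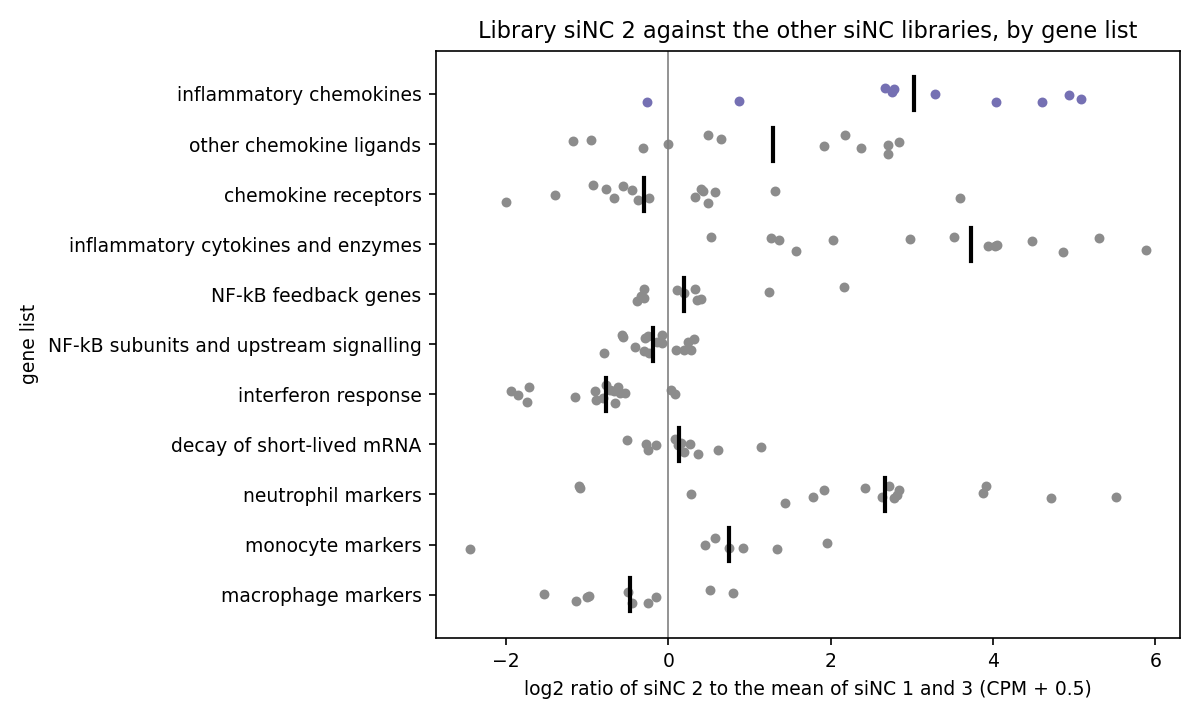
Log2 ratio of siNC 2 to the mean of siNC 1 and 3 (CPM + 0.5) for each tested gene of 11 lists; each point is a gene and each black bar the median of its list. The chemokine median (purple points) is 3.03, beside 3.73 for cytokines and enzymes, -0.19 for NF-kB subunits and -0.77 for the interferon response.

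Of the receptors of these ligands, Ccr1 and Cxcr2 were more than 2-fold above each other library in siNC 2, Ccr1 by far the more. Ccr1 measured 9.50, 103 and 6.74 CPM in the siNC libraries and 5.73, 7.25 and 6.22 CPM in the siPiezo1 libraries. Ccr2 measured 7.84, 11.7 and 7.55 CPM in the siNC libraries and 6.58, 7.74 and 4.99 CPM in the siPiezo1 libraries, and Cxcr2 at 6.32, 15.6 and 5.64 CPM in the siNC libraries and 6.86, 6.65 and 5.02 CPM in the siPiezo1 libraries. Cxcr3, named after its values were seen because it is the Cxcl10 receptor, stood at 1.26 to 2.88 CPM in siNC and 2.77 to 4.55 CPM in siPiezo1. Over the whole receptor list, 16 of 23 genes were tested and 5 were at 0 in every library.

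Other chemokine ligands split in the same library. Of 25, 12 were tested, and 6 of those were more than 2-fold above each other library in siNC 2. Ccl6, the neighbour of Ccl3, measured 152, 1022 and 159.5 CPM in the siNC libraries and 150.1, 185 and 198 CPM in the siPiezo1 libraries. Pf4, the neighbour of Cxcl3, measured 28.9, 205 and 33.0 CPM in the siNC libraries and 32.8, 38.2 and 39.7 CPM in the siPiezo1 libraries. Cxcl16, a membrane-bound chemokine of macrophages, was lowest in siNC 2, at 286, 143 and 269 CPM in siNC against 285, 251 and 263 CPM in siPiezo1.

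No gene of these 7 lists passed the threshold in either direction, with all 6 libraries or without siNC 2 (edgeR quasi-likelihood F-test, Benjamini-Hochberg). DESeq2 with all libraries called 0 in each. It gave no adjusted p for 7 of 14 cytokine genes, 1 of 12 other ligands and 1 of 16 receptors, which therefore could not be called. At an unadjusted p under 0.05 and with all libraries, edgeR had 1 of 12 other ligands, 3 of 16 receptors, 0 of 16 NF-kB genes, 1 of 11 feedback genes, 2 of 14 cytokine genes, 1 of 17 interferon genes and 1 of 12 decay genes, beside 4.93% of all genes. Without siNC 2 the counts were 0, 2, 2, 3, 4, 5 and 3 in the same order, beside 14.4% of all genes. The median log2 fold changes with all libraries were -1.13, 0.09, 0.00, -0.15, -1.83, 0.10 and -0.05. Without siNC 2 they were -0.06, -0.08, -0.05, -0.08, 0.31, -0.14 and -0.03, so among these 7 the cytokine list turned from below 0 to above it, as the chemokines did. The medians of the monocyte markers (-0.13 to 0.36) and of 3 tested mast cell and basophil markers (-0.66 to 0.72) turned the same way.

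Cell type markers differed in siNC 2 as well. The median log2 ratio of siNC 2 to siNC 1 and 3 was -0.47 over 10 macrophage markers, and Csf1r, the receptor for macrophage colony-stimulating factor, measured 4447, 2290 and 4547 CPM in the siNC libraries and 4463, 3946 and 4142 CPM in the siPiezo1 libraries. Of 16 neutrophil markers, 13 were more than 2-fold above each other library there, and their summed level was 902 to 4447 CPM in siNC and 923 to 1050 CPM in siPiezo1. S100a8, a calcium-binding protein of neutrophils, measured 112, 854 and 125 CPM in the siNC libraries and 116, 118 and 136 CPM in the siPiezo1 libraries. Ctsg and Elane, granule proteases, stood in siNC 2 at 66.0 and 36.2 times the mean of siNC 1 and 3. Ly6g and Retnlg, named here because they define mature neutrophils, were at most 0.371 and 0.822 CPM in any library. Of 7 monocyte markers, 1 was more than 2-fold above. Their summed level was 779 to 1130 CPM in siNC and 1165 to 1429 CPM in siPiezo1. Hp, which encodes haptoglobin, made up most of it, and without Hp the other 6 summed to 252 to 388 CPM in siNC and 331 to 362 CPM in siPiezo1, which overlap. Without siNC 2 the monocyte markers Ly6c2 and Hp were higher in siPiezo1, with log2 fold changes of 0.82 ± 0.07 and 0.81 ± 0.11 (SE, adjusted p = 0.00363 and 0.0235, edgeR quasi-likelihood F-test, Benjamini-Hochberg). The macrophage markers Adgre1 and Fcgr1 were lower there, with log2 fold changes of -0.31 ± 0.05 and -0.46 ± 0.07 (SE, adjusted p = 0.0385 and 0.0280, edgeR quasi-likelihood F-test, Benjamini-Hochberg). In that comparison 4 of the 7 monocyte markers had log2 fold changes above 0 and 3 below, among them Ccr2 at -0.26. Of the 10 macrophage markers, 3 were above 0, among them Cd14 at 0.25, and 7 below, with 3 called lower. The part of these cell markers in the chemokine values was not tested. Of 8 T and NK cell markers, 7 were at 0 in every library, and the summed dendritic, B cell and mast cell markers were at most 2.73, 3.54 and 2.06 CPM. Stromal markers summed to 9.33 to 25.6 CPM in siNC and 14.4 to 17.1 CPM in siPiezo1.

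The genes whose pattern over the 6 libraries was most like the mean of the scaled chemokine genes were Igf1r, Hdac2, Palm, Dgat2, Stfa2l1 and Ppa1, with Pearson's r of 0.996 to 0.999. The 6 points share libraries, and siNC 2 sets most of each correlation, so the values are a description. Pearson's r also leaves out the size of a difference. The siNC 2 level was 1.20 times the mean of siNC 1 and 3 for Hdac2 and 13.5 times for Stfa2l1. Dgat2, which makes triglycerides, measured 6.14, 48.5 and 6.03 CPM in the siNC libraries and 7.65, 8.28 and 7.77 CPM in the siPiezo1 libraries. Igf1r, the receptor for insulin-like growth factor, measured 10.3, 37.4 and 11.0 CPM in the siNC libraries and 12.6, 13.1 and 12.8 CPM in the siPiezo1 libraries. In both, as in 6 of the chemokine genes, the siPiezo1 libraries lay between siNC 2 and the other siNC libraries.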

How the data were processed

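Poly(A) RNA of 6 libraries was sequenced as paired-end reads from strand-marked libraries, per the labels' protocols. Per the submitters' processing notes, cutadapt 1.9, HISAT2 2.0.4, StringTie 1.3.4d, DESeq2 and edgeR were used with build GRCm39. For their roles, the annotation release and the strand setting, nothing is given in the sources used here. What the authors deposited are estimated counts, as whole numbers for each Ensembl gene and unscaled. Low values recur at steps of 3.85 to 3.93 counts, so a fragment was worth about that many counts. The design had assumed counts, and the same test was used without rounding. Groups came from the titles, and 0 columns were unmapped.

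Symbols came from GENCODE M21 (55141 of 55401 identifiers; the rest held at most 0.00886% of a library). The same annotation, of another build than the processing notes name, gave exon lengths. The members and gene lists were chosen with earlier results of these data known. In R 4.3.3, edgeR 4.0.16 kept 15959 genes (filterByExpr, group), scaled with TMM factors of 0.988 to 1.028 and ran the robust quasi-likelihood F-test with group as its single term. P-values were Benjamini-Hochberg adjusted over all tested genes, with a threshold of 0.05. SE is the absolute log2 fold change over the root of F. CPM used the TMM factors. Fits that left out a library kept the same genes. Log2 ratios of siNC 2 used CPM + 0.5. DESeq2 1.42.0, limma 3.58.1 and the other alternatives are given in the closing section; those run on the 5 libraries without siNC 2 were chosen after the data were seen. Copies were searched with BLAST+ 2.17.0.

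Named list genes were those past the threshold with or without siNC 2, the 4 with the highest mean CPM and the 3 with the largest siNC 2 ratio among genes of at least 1 CPM. Genes most like the members needed a mean of 5 CPM and were ranked by Pearson's r over 6 libraries. On simulated counts for 15959 genes and all 6 libraries the test found 5.97% of genes altered 1.5-fold, 38.8% of those altered 2-fold and 72.7% of those altered 4-fold, with 1.27% false calls. Without siNC 2 these were 2.99%, 25.4% and 71.2%, with 2.94% false calls. The simulation gave each gene the spread typical of its level and set no library apart. Its rates therefore need not hold for the chemokine genes, which spread widely because of siNC 2. Numbers were not treated as pairs because nothing in the labels says that they mark a shared culture, animal or day. Deviations of same-numbered libraries from their group means had correlations of 0.03, -0.062 and -0.086, beside -0.073 to 0.123 for differently numbered ones. With 3 libraries per group, these values cannot show whether pairs exist. Replicates of a group differed beyond sampling noise. Results for some list genes past these rules are not reported here.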

Additional observations from a re-analysis of the deposited data

How the results depend on the processing

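The number of chemokine genes past the threshold with 6 libraries was 0 in every alternative but 1, which leaves out siNC 2: leaving out single libraries gave 0 to 1. The median log2 fold change of the members ranged from -1.81 to 0.35 when single libraries were left out, with the value above 0 coming from the test without siNC 2, and was 0.18 with limma-voom and library weights, which gave siNC 2 a weight of 0.2. With those weights the log2 fold change turned above 0 for Ccl2 (0.19), Ccl3 (0.20), Ccl4 (0.15), Cxcl1 (0.36), Cxcl2 (0.26) and Cxcl3 (0.80). With single libraries left out it ranged from -3.59 to 0.57 for Ccl2, -1.52 to 0.37 for Ccl3, -1.67 to 0.33 for Ccl4, -1.95 to 0.69 for Cxcl1, -1.53 to 0.47 for Cxcl2 and -2.57 to 1.15 for Cxcl3, above 0 only without siNC 2. The signs of Ccl5, Ccl7, Ccl12 and Cxcl10 held in every alternative run. Without siNC 2, however, the values of Ccl7 (-0.12 ± 0.22, SE) and Ccl12 (-0.43 ± 1.57, SE) were smaller than their SE and give no direction. The median was -0.59 with limma-voom and -0.48 with the replicate block, beside -1.36; the cause was not tested. Over all genes, the 1 call became 88 with DESeq2, 17 with limma-voom and library weights, 0 with library totals alone, 0 with the replicate block and 0 to 178 with single libraries left out. The block changed no call of a chemokine gene, and the numbers share only a label. Without siNC 2, the 1 chemokine call became 3 with DESeq2 and 0 to 1 when a further library was left out. Cxcl3 then ranged from 1.05 to 1.26; its call was lost without siNC 1 or siNC 3 and held without each siPiezo1 library (adjusted p = 0.0422, 0.0113 and 0.0472, edgeR), and the cause was not tested. Depth limits Ccl12 most, at 0 to 76 estimated counts outside siNC 2.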
